A study of Rattus norvegicus with 24 samples.

Results

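Collagens and other extracellular matrix genes were followed in rat kidney after ischemia and reperfusion. The set was a list of 47 names for 46 genes, since Ctgf and Ccn2 name the same gene. A probe was taken when its annotated symbol was on the list and its detection p was under 0.05 on 3 or more arrays. This gave 39 probes for 38 genes, of 14390 probes that passed the same filter and 22523 on the array. No probe was paired with Col4a2, Col6a3, Col12a1, Lamb1, Nid1, Tnc or the myofibroblast actin Acta2, and the probe of Col6a2 did not pass. Loxl1 had 2 probes. The 6 injured groups were medulla and cortex of Wistar rats aged 3 months, taken 6, 24 or 120 h after both kidneys had been made ischemic for 20 min. The 2 control groups were medulla and cortex of sham rats of the same strain and age, for which the labels give no time after surgery. Each of the 8 groups had 3 arrays, so 24 Illumina bead arrays were used in all.

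The kidney's matrix has an interstitial part, built mainly from fibrillar collagens, proteoglycans and elastic fibres, and basement membranes of type IV collagen and laminins under the tubules and capillaries. Fibroblasts and pericytes make most of the interstitial part. After tubular injury a provisional matrix rich in fibronectin is laid down, lysyl oxidases cross-link collagen and elastin outside the cell, and matrix metalloproteinases and their tissue inhibitors set how fast the matrix is cleaved. This remodelling accompanies repair and can end in fibrosis.

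The promoters of 4 members are shown because their genes moved in different ways after injury: Col1a2, Col4a1 and Col6a1 rose and Timp3 fell. Each sequence is RefSeq's on the GRCr8 assembly, 5′ to 3′ on the gene's strand, with 250 bases before the annotated start and 50 after it. Capitals mark 3 motifs that were searched on both strands. The CCAAT box was read as CCAAT, or ATTGG where it lies on the opposite strand. The TATA box was read as TATAAA. The AP-1 site was read as TGANTCA. Col1a2 lies at chr4:33518307-33518606, plus strand.
Col1a2: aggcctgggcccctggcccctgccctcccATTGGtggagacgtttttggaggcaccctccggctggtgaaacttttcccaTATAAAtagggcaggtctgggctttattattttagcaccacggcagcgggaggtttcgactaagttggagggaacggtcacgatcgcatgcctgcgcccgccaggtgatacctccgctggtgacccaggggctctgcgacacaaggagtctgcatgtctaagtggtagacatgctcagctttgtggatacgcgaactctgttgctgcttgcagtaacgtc
Col4a1 lies at chr16:84885347-84885646, plus strand.
Col4a1: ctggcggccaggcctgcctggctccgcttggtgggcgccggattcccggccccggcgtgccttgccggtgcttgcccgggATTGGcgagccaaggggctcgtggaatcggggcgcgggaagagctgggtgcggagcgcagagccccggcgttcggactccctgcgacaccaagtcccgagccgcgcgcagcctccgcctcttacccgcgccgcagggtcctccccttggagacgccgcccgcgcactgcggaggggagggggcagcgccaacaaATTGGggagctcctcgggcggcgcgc
Col6a1 lies at chr20:11905440-11905739, plus strand.
Col6a1: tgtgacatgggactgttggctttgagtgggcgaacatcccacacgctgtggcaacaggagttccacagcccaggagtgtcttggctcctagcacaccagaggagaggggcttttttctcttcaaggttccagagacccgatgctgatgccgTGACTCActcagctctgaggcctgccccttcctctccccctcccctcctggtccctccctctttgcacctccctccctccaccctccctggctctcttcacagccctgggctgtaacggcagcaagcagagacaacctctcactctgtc
Timp3 lies at chr7:19459509-19459808, minus strand.
Timp3: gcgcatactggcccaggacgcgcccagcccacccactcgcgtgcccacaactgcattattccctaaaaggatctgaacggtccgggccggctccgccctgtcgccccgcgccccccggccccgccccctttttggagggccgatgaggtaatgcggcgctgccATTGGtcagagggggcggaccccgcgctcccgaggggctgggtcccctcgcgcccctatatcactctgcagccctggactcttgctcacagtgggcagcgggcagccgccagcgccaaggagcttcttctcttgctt
In the Col1a2 window the CCAAT box began at base -221 from the annotated start and the TATA box at -170. The annotated Col1a2 start falls on the letters atg, so it may be a start codon and not the start of transcription. These positions may therefore not be distances from where transcription begins. Col4a1 had CCAAT boxes at -170 and 25, Col6a1 had an AP-1 site at -99, and Timp3 had a CCAAT box at -87. A promoter was found for 23 of the 38 member genes. A CCAAT box was present in 7 of these 23 (30.4%), against 37.5% of 33469 rat promoters of the same length. A TATA box was present in 5 (21.7%, against 14.2% of all), the GC box GGGCGG in 11 (47.8%, against 33.1%) and an AP-1 site in 3 (13%, against 7.33%). These matches describe the letters of the windows only.

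The arrays had median intensities of 67.3 to 98.1 and 11173 to 12710 probes above background. Sham medulla replicate 1 correlated better with sham cortex (r = 0.979) than with the other sham medulla arrays (r = 0.968). Its summed proximal tubule markers, 77530 intensity units over 12 probes, were above those of the other sham medulla arrays (40120 and 55450). Cortex at 6 h replicate 3 correlated better with cortex at 120 h (r = 0.974) and with sham cortex (r = 0.967) than with its own group (r = 0.966). Cortex at 6 h replicate 2, medulla at 6 h replicate 3 and medulla at 24 h replicate 1 were each closest to the next time of their region. Cortex at 120 h replicate 2 was the highest of its group for 32 of the 39 member probes (82.1%), against 33.4% of all probes. Medulla at 6 h replicate 3 was the highest for 25 (64.1%, against 39.7% of all). Cortex at 24 h replicate 2 was the lowest of its group for 27 (69.2%, against 33.3%), medulla at 6 h replicate 1 for 25 (64.1%, against 28.5%) and sham medulla replicate 1 for 24 (61.5%, against 38%). Calls lost without 1 of these arrays are named beside the members. The labels do not say whether the 3 arrays of a group came from separate animals, so the p-values may rest on technical spread alone.

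Most of the called changes of matrix genes after injury were increases. With all arrays, the count of called members was highest in medulla at 120 h and lowest in cortex at 6 h. Without 1 array the counts overlapped: 17 to 22 in medulla at 120 h, against 12 to 20 at 6 h and at 24 h. In cortex they were 2 to 7 at 6 h, against 2 to 8 at 120 h. Changes are log2 differences of group means ± SE (n = 3 arrays each, injured minus sham of the same region), and a change was called at limma's adjusted p under 0.05 over all 14390 probes. At 6 h in medulla 13 member probes were higher and 4 lower than in sham, where 17.3% of all probes were called higher and 16.6% lower. At 24 h in medulla 17 were higher and 3 lower (all probes 17.2% and 15.5%), and 16 were higher without Mmp7, whose probe passed the filter only through injured medulla arrays. By 120 h in medulla 23 of 39 were higher and 0 lower by limma, beside 7.69% and 6.88% of all probes, and 27 of 39 had an unadjusted p under 0.05. Cortex at 6 h had 2 higher and 1 lower (all probes 8.87% and 10.8%). The 24 h cortex had 15 higher and 2 lower (all probes 12.6% and 13.6%), and the 120 h cortex had 8 higher and 1 lower (all probes 2.45% and 3.2%). The share of lower members was near that of all probes in cortex at 120 h (1 of 39, against 3.2%) and under it in the other comparisons. The share of higher members was above that of all probes at 24 and 120 h in both regions and in medulla at 6 h. The members were chosen with earlier results of these data known. These counts, and the medians below, therefore describe the set and do not test it.

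The median change of the 39 probes was 0.62, 0.76 and 1.33 in medulla at 6, 24 and 120 h, where the median of all probes was 0.04, 0.03 and -0.00. In cortex it was 0.09, 0.60 and 0.78, against 0.04, 0.02 and 0.01 for all probes. All 3 injured arrays lay above all 3 sham arrays for 26 member probes in medulla at 120 h, where 18% of all probes did so, and for 22 in cortex at 120 h, where 13.5% did so. Without sham medulla replicate 1 the calls in medulla were 14, 14 and 17 at 6, 24 and 120 h, of which 12, 13 and 17 were shared with the calls on all arrays. Cortex at 6 h had 7 calls without 6 h replicate 3, the array least like its group, and 2 without 6 h replicate 1 or 2. In medulla at 6 h the count was 20 without 6 h replicate 1 and 12 without 6 h replicate 3. In cortex at 24 h it was 16 without 24 h replicate 2, 10, 11 or 10 without sham cortex replicate 1, 2 or 3, 10 without 24 h replicate 1 and 9 without 24 h replicate 3. The count in medulla at 24 h was 12 without 24 h replicate 3. Because whole tissue was used, a change in the number of cells that make a matrix gene and a change in its RNA per cell cannot be told apart.

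**Figure D1:**
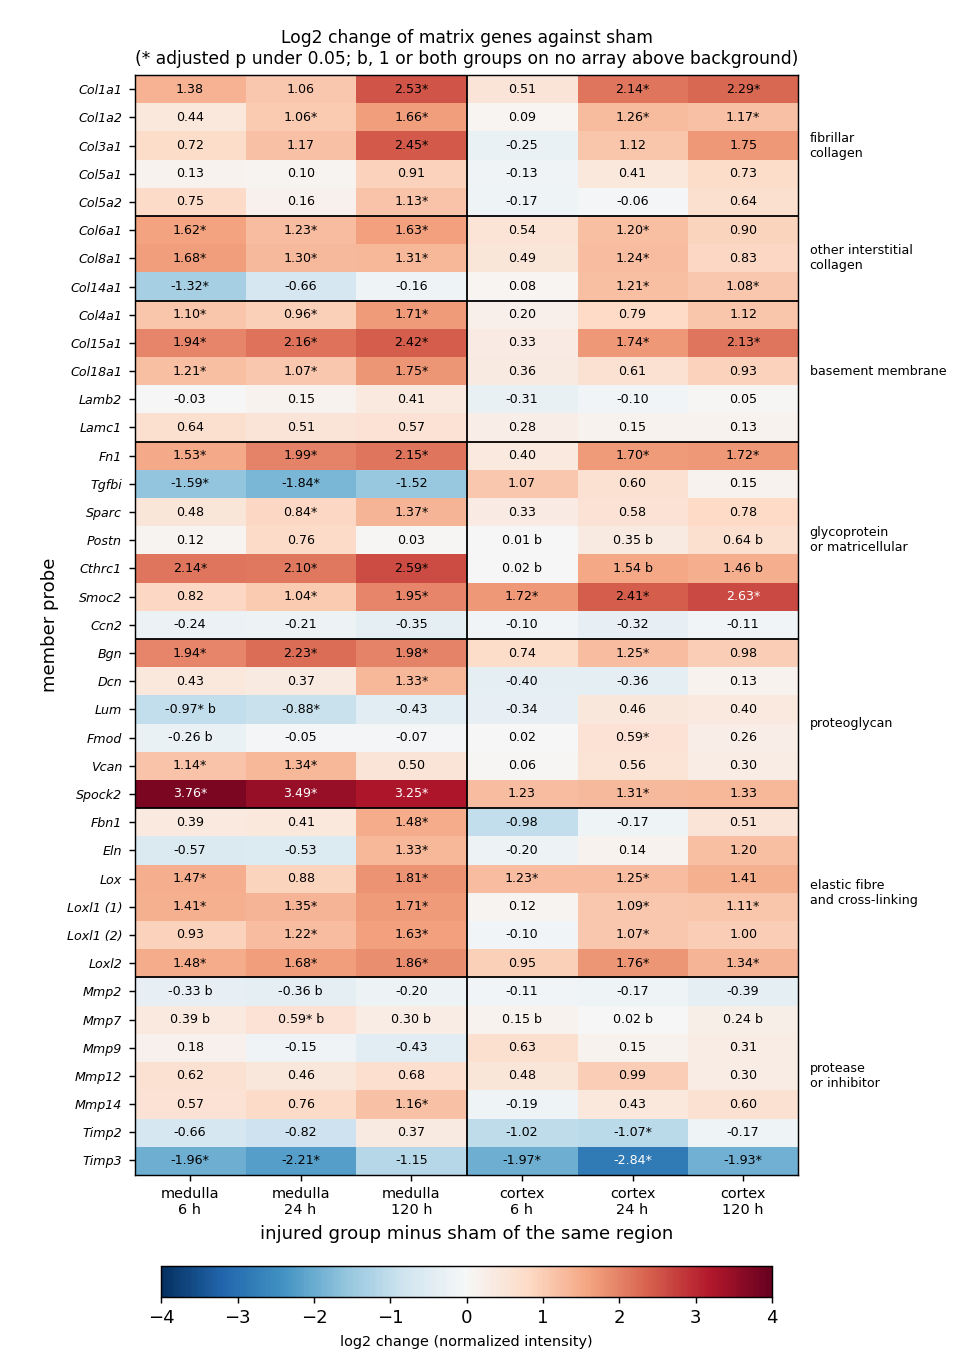
Log2 change of each of the 39 member probes (rows, ordered by role) in the 6 injured groups against sham of the same region (columns, medulla left), with red higher and blue lower than sham, an asterisk for an adjusted p under 0.05, and b where 1 or both groups had no array above background. The medulla column at 120 h has 23 called increases and no called decrease, and Timp3 is blue in all 6 columns.

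Of the 39 probes, 27 were called higher in at least 1 of the 6 comparisons with sham, 5 were called lower, 1 of these in both directions (Col14a1), and 8 were called in none. The 8 were Col5a1, Lamb2, Lamc1, Postn, Ccn2, Mmp2, Mmp9 and Mmp12. The comparisons of a region share its 3 sham arrays, so agreement among times is not independent. In medulla 11 probes were called higher at all 3 times. The 89 calls against sham included 46 that held when each of the 6 arrays compared was left out in turn: 10 of 17 in medulla at 6 h, 10 of 20 at 24 h and 15 of 23 at 120 h, and in cortex 2 of 3, 7 of 17 and 2 of 9.

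The fibrillar collagens, which form the tensile fibrils of the interstitium, were called higher for 4 of 5 measured genes in medulla at 120 h and for 1 at 24 h. In cortex 2 of the 5 were called higher at both 24 and 120 h, and none was called at 6 h in either region. The type I collagen chain Col1a1 read 5.05, 5.39 and 4.97 in sham, 5.65, 6.38 and 7.50 at 6 h, 5.35, 6.23 and 7.01 at 24 h, and 8.32, 7.51 and 7.15 at 120 h in medulla, in log2 normalized intensity. In cortex it read 4.79, 5.54 and 4.66 in sham, 5.08, 6.63 and 4.80 at 6 h, 6.95, 6.52 and 7.94 at 24 h, and 6.53, 8.63 and 6.70 at 120 h. Its medulla arrays at 120 h stood clear of sham, and in sham cortex only 1 of 3 arrays was above background. The change in medulla at 120 h was 2.53 ± 0.60 (adjusted p = 0.0093), while 1.38 at 6 h and 1.06 at 24 h did not pass. In cortex Col1a1 changed by 2.14 ± 0.60 at 24 h (adjusted p = 0.012), and later by 2.29 ± 0.60 at 120 h (adjusted p = 0.0288). The 24 h call in cortex was lost without 24 h replicate 3 (change 1.74, adjusted p = 0.0668), and the 120 h call without 120 h replicate 2 (change 1.62, adjusted p = 0.185) or without sham replicate 1 or 3.

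Col1a2, the other type I chain, rose by 1.06 and 1.66 in medulla at 24 and 120 h, and by 1.26 and 1.17 in cortex at the same times. Its 24 h medulla call was lost without sham medulla replicate 1 (adjusted p = 0.109) or 24 h replicate 3, and its 120 h cortex call was lost without 120 h replicate 2 (change 0.73) or any 1 sham array. Col3a1, the chain of type III collagen, stood at 7.01, 6.93 and 7.25 in sham, 6.66, 8.36 and 8.35 at 6 h, 8.07, 7.56 and 9.06 at 24 h, and 9.58, 9.94 and 9.02 at 120 h in medulla. The cortex values of Col3a1 were 7.26, 6.96 and 6.79 in sham, 6.95, 7.06 and 6.24 at 6 h, 8.25, 7.19 and 8.93 at 24 h, and 7.86, 9.90 and 8.49 at 120 h. Only in medulla at 120 h was it called, at 2.45 ± 0.52 (adjusted p = 0.00524), a 5.46-fold increase with all 3 arrays above sham. In cortex at 120 h its arrays were also all above sham, at 1.75 ± 0.52, but the adjusted p was 0.056. Type V collagen, which regulates fibril assembly, was called for 1 of its 2 chains: Col5a2 rose by 1.13 ± 0.33 in medulla at 120 h (adjusted p = 0.0305), a call lost without sham medulla replicate 1 or 2 or 120 h replicate 2 or 3 (adjusted p up to 0.113). Col5a1 changed by 0.91 ± 0.32 there (adjusted p = 0.0616).

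**Figure D2:**
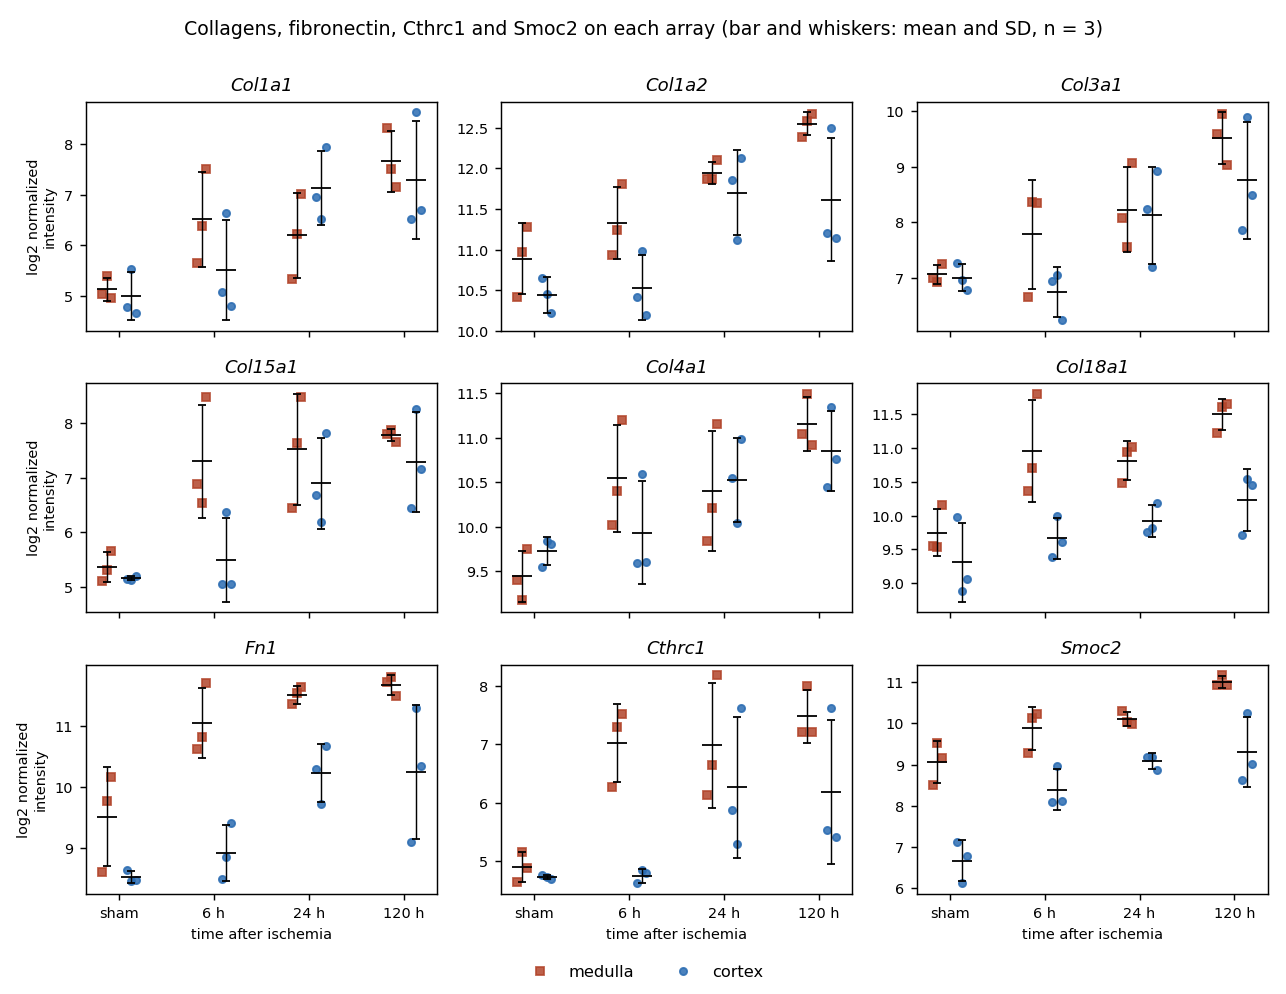
Log2 normalized intensity on each array for 9 collagens and glycoproteins, in sham and at 6, 24 and 120 h after ischemia, with medulla as squares left of cortex as circles and bars with whiskers for the mean and SD of 3 arrays. Col1a1 and Col3a1 arrays of medulla at 120 h lie above all sham medulla arrays, and 1 cortex array at 120 h (replicate 2) is the highest of its group for every gene shown.

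The 3 other interstitial collagens were all higher in cortex at 24 h, and in medulla 2 were higher and 1 lower at 6 h. Col6a1, a chain of the beaded type VI microfilaments around cells, read 6.86, 7.34 and 7.53 in sham, 8.30, 8.95 and 9.33 at 6 h, 8.34, 8.20 and 8.89 at 24 h, and 8.90, 9.09 and 8.64 at 120 h in medulla. In cortex Col6a1 read 7.54, 6.88 and 7.03 in sham, 7.68, 7.96 and 7.43 at 6 h, 8.43, 7.73 and 8.91 at 24 h, and 7.93, 8.75 and 7.47 at 120 h. Every injured medulla array was above every sham medulla array, and the changes were 1.62 ± 0.34, 1.23 ± 0.34 and 1.63 ± 0.34 (adjusted p = 0.00127, 0.00892 and 0.00424). The cortex was called at 24 h only (1.20 ± 0.34, adjusted p = 0.012), a call lost without 24 h replicate 3 (adjusted p = 0.0742). Its 24 h call in medulla was lost without sham replicate 1 (change 1.04, adjusted p = 0.0523) or 24 h replicate 3.

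Col8a1, a network-forming short-chain collagen found in vessel walls, stood at 4.83, 5.36 and 5.09 in sham, 6.58, 6.43 and 7.33 at 6 h, 6.81, 5.83 and 6.56 at 24 h, and 5.80, 6.84 and 6.60 at 120 h in medulla. Its cortex values were 4.98, 4.74 and 4.88 in sham, 5.0, 5.94 and 5.12 at 6 h, 6.32, 5.91 and 6.08 at 24 h, and 5.04, 6.89 and 5.14 at 120 h. Only 1 of 3 sham cortex arrays and 2 of 3 sham medulla arrays were above background. The medulla changes were 1.68 ± 0.40, 1.30 ± 0.40 and 1.31 ± 0.40 with adjusted p of 0.00352, 0.0183 and 0.0347, and all injured medulla arrays exceeded sham. In cortex only the 24 h change of 1.24 ± 0.40 was called (adjusted p = 0.0285), and it was lost when any 1 of the 6 arrays compared was left out (adjusted p up to 0.09). Without sham medulla replicate 1 the medulla calls at 24 h (change 1.17) and 120 h (change 1.18) were also lost. The 24 h call was further lost without 24 h replicate 1 or 3, and the 120 h call without sham replicate 3 or 120 h replicate 2 or 3 (adjusted p up to 0.0732 and 0.144).

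Col14a1, the fibril-associated collagen XIV, was called lower in medulla and higher in cortex. Its medulla values were 6.48, 6.79 and 6.62 in sham, 5.26, 5.15 and 5.52 at 6 h, 6.20, 5.70 and 6.01 at 24 h, and 6.59, 6.24 and 6.59 at 120 h. Its cortex values were 6.03, 6.08 and 4.99 in sham, 5.85, 6.22 and 5.25 at 6 h, 7.12, 6.86 and 6.75 at 24 h, and 6.63, 7.34 and 6.36 at 120 h. All 6 h medulla arrays were below all sham medulla arrays, whereas all 24 h cortex arrays were above all sham cortex arrays. In medulla at 6 h Col14a1 fell by 1.32 (SE 0.28, adjusted p = 0.00171), and -0.66 at 24 h and -0.16 at 120 h did not pass. In cortex it rose by 1.21 ± 0.28 at 24 h (adjusted p = 0.00377), and later by 1.08 ± 0.28 at 120 h (adjusted p = 0.0303), the 120 h call being lost without 120 h replicate 1 or 2 or sham replicate 3 (adjusted p up to 0.187).

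Among basement membrane genes the 3 collagens rose in medulla at all 3 times, and with all arrays the 2 laminin chains were not called. Col4a1, a chain of the type IV network, had medulla values of 9.40, 9.18 and 9.75 in sham, 10.02, 10.41 and 11.20 at 6 h, 9.84, 10.21 and 11.15 at 24 h, and 11.05, 11.50 and 10.92 at 120 h. Cortex values of Col4a1 were 9.55, 9.84 and 9.81 in sham, 9.60, 10.60 and 9.61 at 6 h, 10.55, 10.05 and 10.99 at 24 h, and 10.45, 11.34 and 10.77 at 120 h. The injured medulla arrays were all above sham medulla, with changes of 1.10 ± 0.36, 0.96 ± 0.36 and 1.71 ± 0.36 (adjusted p = 0.0232, 0.0465 and 0.00467). The 6 h and 24 h calls were each lost without sham medulla replicate 1 (changes 1.08 and 0.94) or 2 and without replicate 3 of the injured group, and that at 24 h also without 24 h replicate 2. The 120 h call held without each array. In cortex 0.79 at 24 h and 1.12 at 120 h did not pass (adjusted p of 0.114 and 0.074).

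Col15a1, a collagen that links basement membranes to the interstitium, read 5.11, 5.30 and 5.66 in sham, 6.89, 6.54 and 8.48 at 6 h, 6.44, 7.63 and 8.48 at 24 h, and 7.80, 7.88 and 7.66 at 120 h in medulla. It read 5.14, 5.13 and 5.20 in sham, 5.05, 6.38 and 5.04 at 6 h, 6.68, 6.19 and 7.82 at 24 h, and 6.44, 8.26 and 7.17 at 120 h in cortex. Sham arrays lay in a narrow band in both regions and all injured medulla arrays were above it. The changes in medulla were 1.94 ± 0.55, 2.16 ± 0.55 and 2.42 ± 0.55 (adjusted p = 0.0107, 0.00595 and 0.00786), of which the 6 h call was lost without 6 h replicate 3 (change 1.35). In cortex Col15a1 rose by 1.74 ± 0.55 at 24 h and 2.13 ± 0.55 at 120 h (adjusted p of 0.0251 and 0.0284). The 24 h cortex call was lost without any 1 sham array or 24 h replicate 3 (adjusted p up to 0.137), and the 120 h call without any 1 sham array or 120 h replicate 2 or 3 (adjusted p up to 0.173).

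Col18a1, the collagen from which endostatin is cut, read 9.55, 9.53 and 10.15 in sham, 10.37, 10.70 and 11.81 at 6 h, 10.48, 10.95 and 11.02 at 24 h, and 11.23, 11.61 and 11.66 at 120 h in medulla. In cortex its values were 9.98, 8.88 and 9.06 in sham, 9.39, 9.99 and 9.61 at 6 h, 9.75, 9.82 and 10.19 at 24 h, and 9.71, 10.55 and 10.45 at 120 h, with injured and sham arrays overlapping. The medulla changes of 1.21 ± 0.34, 1.07 ± 0.34 and 1.75 ± 0.34 were called (adjusted p = 0.00911, 0.02 and 0.00273). Its 6 h call was lost without 6 h replicate 3 (change 0.79) and its 24 h call without sham replicate 1 or 2 or 24 h replicate 2 or 3 (adjusted p up to 0.0777). The laminin chains Lamb2 and Lamc1, which with other chains form the sheet that cells bind, changed by -0.03 to 0.41 and by 0.51 to 0.64 in medulla, and none of these changes passed. Without sham medulla replicate 1, however, Lamc1 was called in medulla at 6 h.

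Of 7 glycoproteins and matricellular proteins, 4 were higher in medulla at 24 and 120 h and 2 in cortex, and Smoc2 had the largest called increase of all members in cortex at 6, 24 and 120 h. Fn1, the adhesive glycoprotein of the provisional matrix, read 8.61, 9.77 and 10.16 in sham, 10.62, 10.81 and 11.70 at 6 h, 11.35, 11.52 and 11.63 at 24 h, and 11.71, 11.79 and 11.48 at 120 h in medulla. In cortex Fn1 read 8.64, 8.46 and 8.48 in sham, 8.50, 8.86 and 9.41 at 6 h, 10.30, 9.72 and 10.66 at 24 h, and 9.11, 11.28 and 10.34 at 120 h. Every injured medulla array exceeded every sham medulla array, and sham medulla replicate 1 was the lowest of its group. The medulla changes were 1.53 ± 0.44, 1.99 ± 0.44 and 2.15 ± 0.44 (adjusted p = 0.0109, 0.00204 and 0.00395), and the 6 h call was lost without sham replicate 1 (change 1.07, adjusted p = 0.082) or 6 h replicate 3. Fn1 in cortex rose by 1.70 ± 0.44 at 24 h (adjusted p = 0.00699), and later by 1.72 ± 0.44 at 120 h (adjusted p = 0.0252). The 120 h call in cortex was lost without 120 h replicate 2 (change 1.20) or 3 or any 1 sham array.

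Cthrc1, a secreted protein with a short collagen repeat, was near background in sham kidneys. Its medulla values were 4.63, 5.15 and 4.88 in sham, 6.27, 7.29 and 7.52 at 6 h, 6.12, 6.65 and 8.19 at 24 h, and 7.22, 8.01 and 7.22 at 120 h. Its cortex values were 4.76, 4.72 and 4.69 in sham, 4.61, 4.84 and 4.78 at 6 h, 5.88, 5.29 and 7.62 at 24 h, and 5.53, 7.62 and 5.41 at 120 h. No sham or 6 h cortex array was above background, and all cortex arrays at 24 and 120 h were. In medulla the change was 2.14 ± 0.59 at 6 h, 2.10 ± 0.59 at 24 h and 2.59 ± 0.59 at 120 h (with adjusted p of 0.0085, 0.0103 and 0.00745), and the 24 h call was lost without 24 h replicate 3 (change 1.50). In cortex Cthrc1 was at least 2.61-fold higher at 24 h and at least 2.48-fold higher at 120 h, bounds set by the lowest signal above background, with adjusted p of 0.0598 and 0.161. Each bound rested largely on 1 array: it was 1.63-fold without 24 h replicate 3 and 1.51-fold without 120 h replicate 2.

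Smoc2, a calcium-binding matricellular protein of the Sparc family, read 8.51, 9.52 and 9.15 in sham, 9.28, 10.12 and 10.23 at 6 h, 10.29, 10.02 and 9.98 at 24 h, and 10.94, 11.17 and 10.92 at 120 h in medulla. In cortex Smoc2 read 7.11, 6.12 and 6.78 in sham, 8.09, 8.97 and 8.12 at 6 h, 9.19, 9.19 and 8.86 at 24 h, and 8.63, 10.26 and 9.02 at 120 h. All 9 injured cortex arrays were above all sham cortex arrays. In cortex the changes were 1.72 ± 0.37, 2.41 ± 0.37 and 2.63 ± 0.37 (adjusted p = 0.00303, 0.000112 and 0.000388), a 6.2-fold increase at 120 h, and each of these calls held without any 1 array. Without 120 h replicate 2 the 120 h change was 2.16 (adjusted p = 0.00247). In medulla Smoc2 rose by 1.04 ± 0.37 at 24 h and 1.95 ± 0.37 at 120 h (adjusted p of 0.0355 and 0.00245), the 24 h call being lost without any 1 array except sham replicate 2 (adjusted p up to 0.179).

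Sparc, which binds collagen and guides fibril assembly, rose by 0.84 ± 0.24 in medulla at 24 h and by 1.37 ± 0.24 at 120 h (adjusted p of 0.0111 and 0.00136). The 24 h call was lost without sham medulla replicate 2 (change 0.69, adjusted p = 0.054). Tgfbi, an adhesion protein induced by TGF-beta, was called lower in medulla at 6 and 24 h, with 8.87, 9.19 and 8.67 in sham, 7.42, 7.79 and 6.76 at 6 h, 8.07, 6.83 and 6.33 at 24 h, and 8.11, 7.05 and 7.02 at 120 h. It fell by 1.59 at 6 h and fell by 1.84 at 24 h there (SE 0.55, adjusted p of 0.0305 and 0.0145), and its change of -1.52 at 120 h did not pass (adjusted p = 0.0686). The 6 h call was lost without sham medulla replicate 1 or 2 or 6 h replicate 1 or 3, and the 24 h call without 24 h replicate 2 or 3 (adjusted p up to 0.12 and 0.0854). In cortex Tgfbi spread widely within sham (8.52, 7.76 and 6.35) and its changes of 1.07, 0.60 and 0.15 did not pass. Postn (periostin), a matricellular protein of healing tissue, was above background on 7 of 9 injured medulla arrays and 1 of 3 sham medulla arrays, and no change of it was called. Ccn2, or connective tissue growth factor, a matricellular growth modulator, lay between 11.86 and 14.22 on all arrays, near the top of the normalized scale (14.78), and its changes were between -0.35 and -0.10.

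Of 6 proteoglycans, 3 were higher at each time in medulla and 3 in cortex at 24 h, and Spock2 in medulla at 6 h had the largest change of all members. Spock2 (testican-2), a calcium-binding proteoglycan, read 5.62, 5.75 and 5.59 in sham, 9.81, 9.45 and 8.98 at 6 h, 8.53, 9.12 and 9.79 at 24 h, and 8.65, 8.03 and 10.01 at 120 h in medulla. In cortex Spock2 read 4.91, 5.72 and 5.02 in sham, 6.59, 6.82 and 5.92 at 6 h, 6.45, 6.93 and 6.20 at 24 h, and 5.96, 7.69 and 5.97 at 120 h. The lowest injured medulla array, at 8.03, stood above the highest sham medulla array, at 5.75. The medulla changes were 3.76 ± 0.47, 3.49 ± 0.47 and 3.25 ± 0.47 (adjusted p = 2.51e-05, 4.62e-05 and 0.000475), or 13.6-, 11.3- and 9.48-fold, and each held without any 1 array. In cortex only the 24 h change of 1.31 ± 0.47 was called (adjusted p = 0.0471), and it was lost without any 1 of the arrays compared except sham replicate 2 (adjusted p up to 0.161).

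Bgn (biglycan), a small leucine-rich proteoglycan that binds collagen fibrils, had medulla values of 6.16, 7.32 and 7.47 in sham, 8.74, 8.76 and 9.27 at 6 h, 8.94, 9.10 and 9.62 at 24 h, and 8.83, 9.22 and 8.84 at 120 h. In cortex Bgn had 6.76, 6.70 and 6.55 in sham, 7.50, 7.70 and 7.05 at 6 h, 7.96, 7.88 and 7.91 at 24 h, and 7.49, 8.28 and 7.18 at 120 h. Injured and sham arrays did not overlap in either region at any time. The changes in medulla were 1.94 ± 0.30, 2.23 ± 0.30 and 1.98 ± 0.30 (adjusted p = 0.000152, 4.61e-05 and 0.000676) and in cortex 1.25 ± 0.30 at 24 h (adjusted p = 0.00488), and these 4 calls held without any 1 array. Bgn in cortex at 6 and 120 h did not pass (0.74 and 0.98, with adjusted p of 0.0906 and 0.0641).

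Vcan (versican), the large hyaluronan-binding proteoglycan of provisional matrix, rose by 1.14 ± 0.30 and 1.34 ± 0.30 in medulla at 6 and 24 h (adjusted p of 0.00713 and 0.00254). At 120 h its change of 0.50 did not pass, and the 6 h call was lost without sham medulla replicate 1 (change 0.78). Dcn (decorin), which limits fibril thickness, was called in medulla at 120 h only, at 1.33 ± 0.32 (adjusted p = 0.0112), and not without 120 h replicate 3 (change 1.13). Lum (lumican), another regulator of fibrils, read 5.49, 5.53 and 5.64 in sham, 4.48, 4.60 and 4.67 at 6 h, 4.84, 4.66 and 4.53 at 24 h, and 4.90, 5.22 and 5.26 at 120 h in medulla. Its cortex values were 5.18, 5.38 and 5.24 in sham, 5.35, 4.70 and 4.75 at 6 h, 5.98, 5.28 and 5.93 at 24 h, and 5.58, 6.01 and 5.43 at 120 h. All injured medulla arrays were below all sham medulla arrays, and no 6 h medulla array was above background. In medulla Lum was at least 1.53-fold lower at 6 h (adjusted p = 0.00106) and fell by 0.88 at 24 h (SE 0.20), where 1 of 3 arrays was above background (adjusted p = 0.00237), and both calls held without any 1 array. Fmod (fibromodulin), of the same family, rose by 0.59 ± 0.19 in cortex at 24 h (adjusted p = 0.0276), a call lost without sham replicate 1 or 3 or 24 h replicate 1 or 2 (adjusted p up to 0.123).

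**Figure D3:**
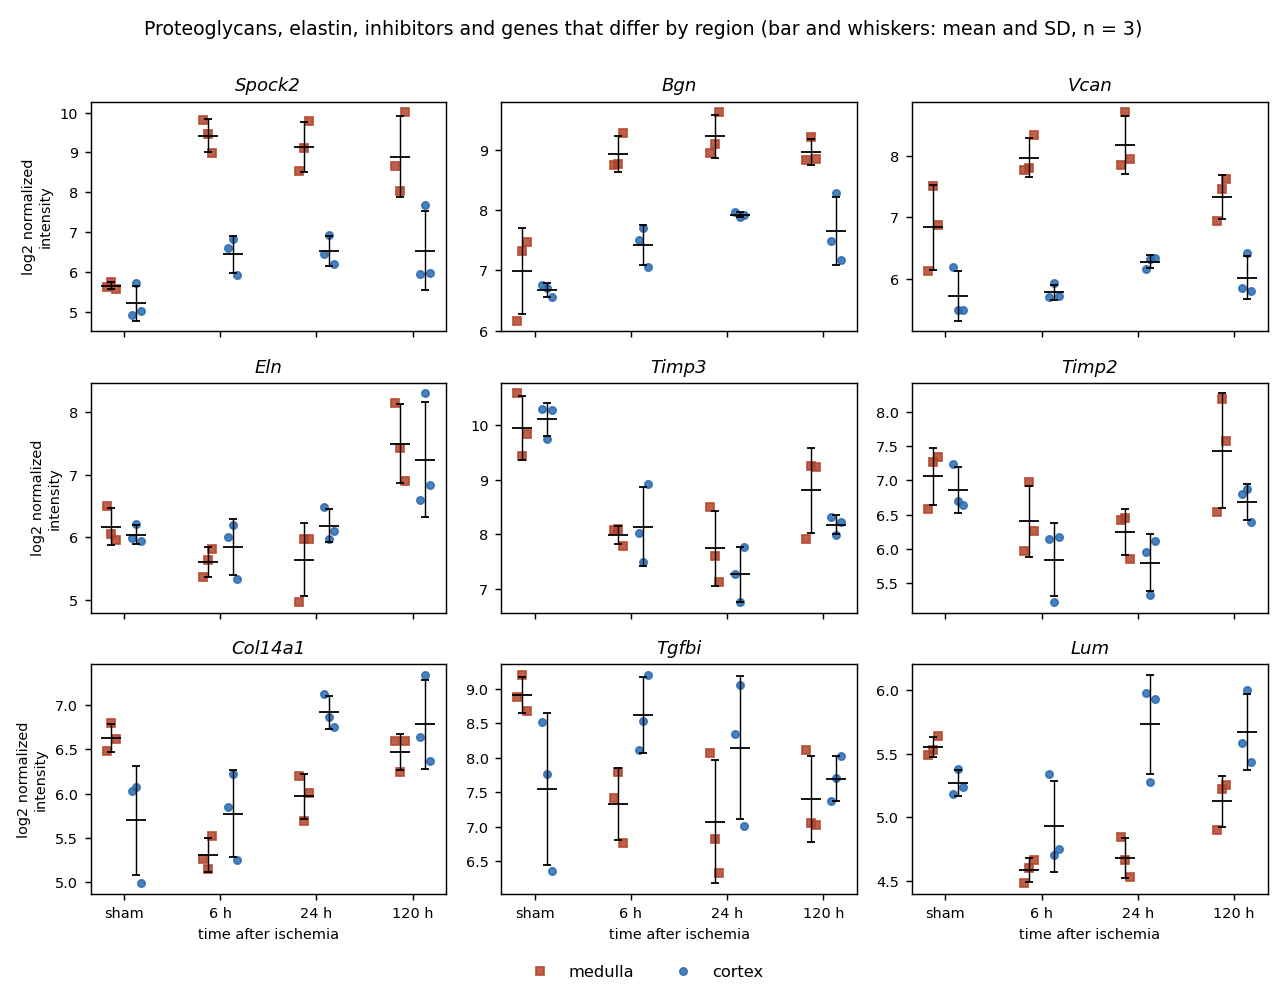
Log2 normalized intensity on each array for 9 proteoglycan, elastic fibre, inhibitor and other members, with medulla as squares left of cortex as circles in sham and at 6, 24 and 120 h after ischemia, and bars with whiskers for the mean and SD of 3 arrays. Spock2 and Bgn separate injured from sham medulla, Timp3 is lower on every injured array than on every sham array of its region, and Col14a1 and Lum of injured medulla lie below those of injured cortex at 24 h.

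In the elastic fibre and cross-linking group all 6 probes of 5 genes were called higher in medulla at 120 h. Lox, the lysyl oxidase that starts cross-links in collagen and elastin, read 7.58, 8.77 and 8.16 in sham, 8.95, 10.04 and 9.93 at 6 h, 9.51, 8.67 and 8.98 at 24 h, and 9.65, 10.44 and 9.85 at 120 h in medulla. It read 7.81, 6.96 and 7.15 in sham, 8.71, 9.02 and 7.87 at 6 h, 8.53, 8.07 and 9.07 at 24 h, and 8.21, 9.60 and 8.35 at 120 h in cortex. The injured arrays exceeded sham without overlap in all comparisons except medulla at 24 h. The medulla changes of 1.47 ± 0.42 at 6 h and 1.81 ± 0.42 at 120 h were called (adjusted p of 0.0112 and 0.0087), but not without sham medulla replicate 1 (changes 1.17 and 1.51). In cortex Lox rose by 1.23 ± 0.42 at 6 h and 1.25 ± 0.42 at 24 h (adjusted p of 0.0459 and 0.0335). Each of these cortex calls was lost under 4 of the 6 omissions of 1 array, those of sham replicate 2 or 3, 6 h replicate 1 or 2, and 24 h replicate 1 or 3 (adjusted p up to 0.211 and 0.144).

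Loxl2, a lysyl oxidase relative that acts on type IV collagen, had medulla values of 4.91, 5.86 and 6.11 in sham, 7.08, 6.94 and 7.33 at 6 h, 7.28, 7.52 and 7.14 at 24 h, and 7.04, 7.61 and 7.83 at 120 h. Its cortex values were 5.01, 4.73 and 5.03 in sham, 5.98, 6.23 and 5.41 at 6 h, 6.70, 6.30 and 7.04 at 24 h, and 6.42, 7.10 and 5.28 at 120 h. Every injured array lay above every sham array of its region. In medulla Loxl2 rose by 1.48 ± 0.36, 1.68 ± 0.36 and 1.86 ± 0.36 (adjusted p = 0.00414, 0.00187 and 0.00321), and in cortex by 1.76 ± 0.36 at 24 h and 1.34 ± 0.36 at 120 h (adjusted p of 0.00159 and 0.035). The 120 h cortex call was lost without any 1 of the arrays compared except 120 h replicate 3 (adjusted p up to 0.22), and the other 4 held without each array. The 2 probes of Loxl1, which is needed for elastic fibre upkeep, gave like changes: 1.71 and 1.63 in medulla at 120 h, 1.35 and 1.22 at 24 h, and 1.09 and 1.07 in cortex at 24 h, all called. Only the first probe was called in medulla at 6 h (1.41) and cortex at 120 h (1.11). The 3 medulla calls of the first probe held without each array, whereas the second was lost without sham medulla replicate 1 at 24 h (change 0.94) and 120 h (change 1.35), and at 24 h also without 24 h replicate 1. In cortex the 24 h calls were lost under 4 and 5 of the 6 omissions of 1 array, and the 120 h call under all 6 (adjusted p up to 0.0691, 0.142 and 0.258).

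The fibre proteins themselves were called at 120 h in medulla only. Eln (elastin) read 6.50, 6.06 and 5.95 in sham, 5.36, 5.64 and 5.82 at 6 h, 4.96, 5.97 and 5.98 at 24 h, and 8.16, 7.44 and 6.91 at 120 h in medulla. Its 120 h arrays were above all other medulla arrays, while 6 h arrays were below sham. The change against sham was 1.33 ± 0.38 at 120 h (adjusted p = 0.0266), lost without 120 h replicate 1 or 2 or sham replicate 2 or 3 (adjusted p up to 0.116). In cortex at 120 h Eln read 6.60, 8.30 and 6.83, against 5.98, 6.21 and 5.94 in sham, a change of 1.20 ± 0.38 that did not pass (adjusted p = 0.0728). Fbn1 (fibrillin-1), the backbone of microfibrils, rose by 1.48 ± 0.39 in medulla at 120 h (adjusted p = 0.0177), and was lost without sham replicate 1 or 2 or 120 h replicate 1 or 2 (adjusted p up to 0.0778).

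Of 7 proteases and inhibitors, Timp3 and Timp2 were the only ones called lower. Timp3, a matrix-bound inhibitor of metalloproteinases, was the member with the largest decreases. It read 10.58, 9.43 and 9.84 in sham, 8.08, 8.09 and 7.79 at 6 h, 8.49, 7.60 and 7.12 at 24 h, and 7.91, 9.26 and 9.24 at 120 h in medulla. In cortex it read 10.29, 9.75 and 10.28 in sham, 8.01, 7.48 and 8.92 at 6 h, 7.28, 6.75 and 7.76 at 24 h, and 8.32, 7.98 and 8.21 at 120 h. Every injured array was below every sham array of its region. In medulla Timp3 fell by 1.96 at 6 h and fell by 2.21 at 24 h (SE 0.41, adjusted p of 0.00134 and 0.000586), and the change at 120 h, -1.15, did not pass (adjusted p = 0.068). In cortex it fell at 6, 24 and 120 h, with changes of -1.97, -2.84 and -1.93 (SE 0.41, adjusted p = 0.00269, 6.91e-05 and 0.00845), or 7.17-fold lower at 24 h. These 5 calls held without any 1 array. Timp2, a soluble inhibitor that also takes part in activating Mmp2, fell by 1.07 in cortex at 24 h (SE 0.37, adjusted p = 0.0401), and the call was lost under each omission of 1 array except 24 h replicate 3 (adjusted p up to 0.172).

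Of the 5 metalloproteinases measured, Mmp14 was called in medulla at 120 h and Mmp7 in medulla at 24 h. Mmp14, a membrane-bound collagenase, read 8.52, 9.79 and 9.51 in sham, 10.10, 9.49 and 9.94 at 6 h, 10.34, 9.61 and 10.15 at 24 h, and 10.30, 10.39 and 10.61 at 120 h in medulla. Its cortex values were 9.13, 8.56 and 8.46 in sham, 8.27, 8.55 and 8.78 at 6 h, 9.36, 8.83 and 9.26 at 24 h, and 8.98, 9.91 and 9.05 at 120 h, and no change there passed. Its increase of 1.16 ± 0.31 in medulla at 120 h passed (adjusted p = 0.017), with all 3 arrays above sham, but not without sham medulla replicate 1 (change 0.78) or 120 h replicate 3. Mmp7 (matrilysin), an epithelial metalloproteinase, was above background on 4 of 9 injured medulla arrays, 2 of them at 24 h, and on no sham or cortex array. Its probe therefore passed the filter only through the group where it was high, so its call at 24 h, at least 1.15-fold higher than sham, is a description and not a test, and it was lost when only these 2 groups were fitted. With all arrays, the gelatinases Mmp2 and Mmp9 and the macrophage elastase Mmp12 were called in no comparison with sham. Mmp2 was above background on no medulla array at 6 or 24 h, and was at least 1.14- and 1.22-fold lower than sham there. Without sham medulla replicate 1 Mmp2 was called at both of these times.

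Sham medulla was set against sham cortex to ask whether matrix genes differed between uninjured regions. Only Smoc2 was called, at 8.51, 9.52 and 9.15 in medulla and 7.11, 6.12 and 6.78 in cortex, a difference of 2.39 ± 0.37 (adjusted p = 0.00299), where 1.39% of all probes were called in either direction. It was called without each array as well, but not when only these 2 groups were fitted (adjusted p = 0.212). The next smallest p-values belonged to Vcan (1.11 ± 0.30, adjusted p = 0.0707) and Col14a1 (0.93 ± 0.28, adjusted p = 0.116). Without sham medulla replicate 1 Vcan passed too and the count was 2, and it was also 2 without sham cortex replicate 1.

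The difference between the regional responses was tested directly, as the medulla change minus the cortex change. No member passed at 6, 24 or 120 h by limma, where 0.202%, 0.0556% and 0.0139% of all probes were called, and 10, 8 and 6 members had an unadjusted p under 0.05. At 24 h the smallest adjusted p-values were those of Lum (difference -1.34 ± 0.28, limma adjusted p = 0.0593) and Col14a1 (difference -1.87 ± 0.40, limma adjusted p = 0.0598). With the replicate number as a random block the count at 24 h was 1 (Lum). It was 1 without 24 h cortex replicate 2 and 2 without 24 h medulla replicate 1. Spock2 had positive differences of 2.54 ± 0.67, 2.18 ± 0.67 and 1.92 ± 0.67 at 6, 24 and 120 h (limma adjusted p = 0.127, 0.21 and 0.748), and Tgfbi had -2.66 ± 0.77 at 6 h (limma adjusted p = 0.164). Changes called in 1 region and not in the other are therefore not shown to differ between regions.

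Fewer members were called between times than against sham. From 6 to 24 h in cortex 2 members were called, where 1.5% of all probes were: Col14a1 (1.14 ± 0.28, adjusted p = 0.0496) and Lum (0.80 ± 0.20, adjusted p = 0.0445). Neither was called without sham medulla replicate 1, 6 h cortex replicate 3, or 24 h cortex replicate 1 or 3. Col14a1 was also lost without 6 h replicate 1 or 24 h replicate 2 and Lum without 6 h replicate 2, so the count was 1 without 6 h replicate 1. From 24 to 120 h in medulla Eln alone was called, at 8.16, 7.44 and 6.91 at 120 h and 4.96, 5.97 and 5.98 at 24 h, a change of 1.86 ± 0.38 (adjusted p = 0.01), where 3.91% of all probes were called. It was called without each array, but not when only these 2 groups were fitted (adjusted p = 0.0668), and the count was 2 without 120 h medulla replicate 1. Between 24 and 120 h in cortex no member passed by limma and 3 had an unadjusted p under 0.05, where 2.34% of all probes were called. Between 6 and 24 h in medulla none passed and 1 had an unadjusted p under 0.05, where 1.4% of all probes were called.

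The count of cortex calls at 120 h depended on single arrays, of the 120 h group and of sham alike. With 120 h replicate 2 left out, 2 member probes were called, Smoc2 and Timp3, against 9 with all arrays. Without sham cortex replicate 1, 2 or 3 the count was 3, 4 or 2. The change of Col1a1 was 1.62 without replicate 2, and that of Col15a1 was 1.65. Summed macrophage markers on that array were 5822 intensity units, against 3235 and 2590 on the other 120 h cortex arrays, and its summed fibroblast and pericyte markers were 2412, against 1231 and 1136. Their part in the result was not tested.

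**Figure D4:**
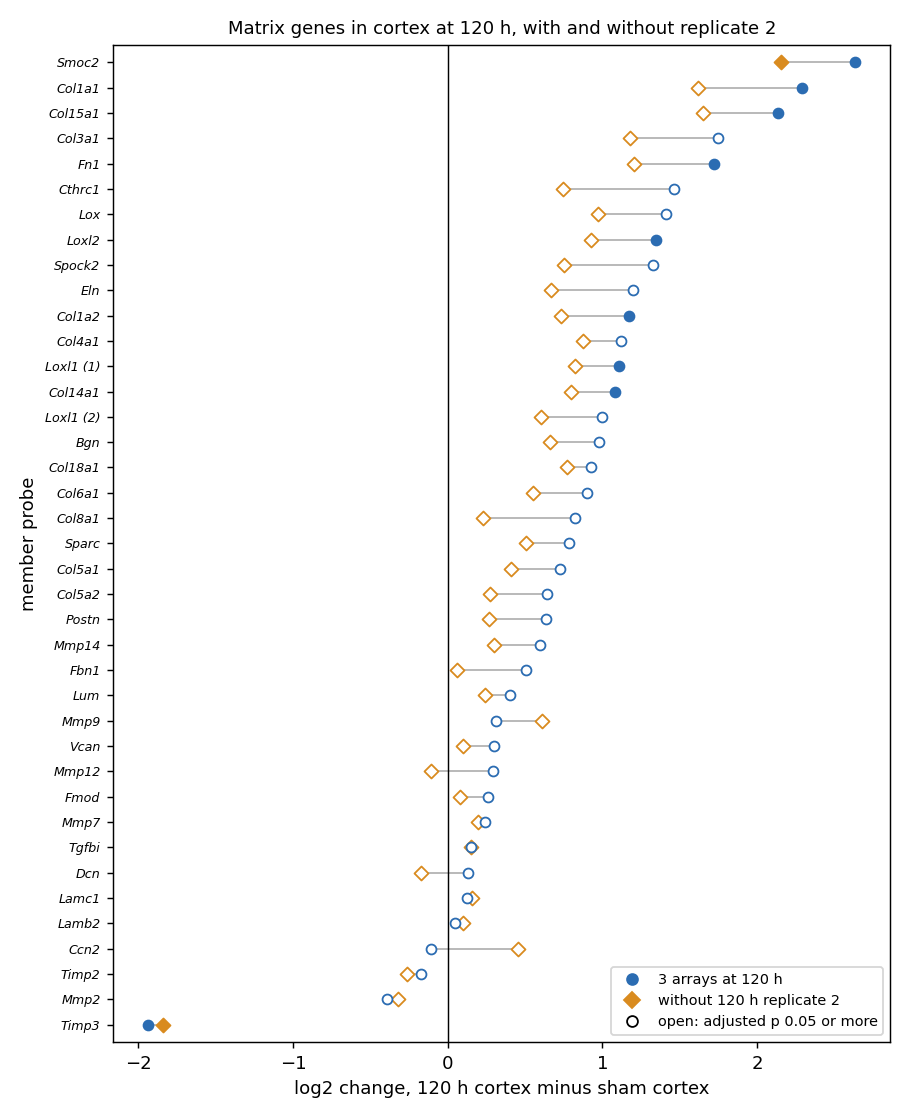
Log2 change of each member probe in cortex at 120 h against sham cortex, with all 3 arrays (circles) and without 120 h replicate 2 (diamonds), ordered by the change on all arrays and filled where the adjusted p was under 0.05. Most diamonds lie left of their circle, and of the diamonds only Smoc2 and Timp3 are filled.

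Markers of other cells also changed after injury, in directions that differed between cell types. Among all probes 17.3%, 17.2% and 7.69% were called higher in medulla at 6, 24 and 120 h, and 16.6%, 15.5% and 6.88% lower. In cortex the shares were 8.87%, 12.6% and 2.45% higher and 10.8%, 13.6% and 3.2% lower. No list was tested against these shares. Of 7 macrophage probes, 5, 6 and 5 were higher in medulla at 6, 24 and 120 h, and 4 at each time in cortex. Their summed level was 4595 to 8067 intensity units on the 9 injured medulla arrays, against 1542 to 2037 in sham medulla, and 1586 to 5822 on the 9 injured cortex arrays, against 857.3 to 1646 in sham cortex. Cd163 was above background on no array of any group. Of 12 proximal tubule probes, 10, 10 and 5 were lower in medulla at 6, 24 and 120 h, and 4, 3 and 1 in cortex, with sums of 14300 to 34020 in injured medulla, against 40120 to 77530 in sham medulla, and of 46020 to 76990 in injured cortex, against 87180 to 93170 in sham cortex. The 4 fibroblast and pericyte probes gave 1 call, Thy1 in medulla at 6 h, and their sums overlapped between injured and sham in both regions (1575 to 3513 in injured medulla, against 1177 to 2035 in sham medulla). Meox1 was above background on no array. Of 5 smooth muscle probes, 1 and 3 were higher in cortex at 6 and 24 h, with sums of 1732 to 2189 at 24 h, against 927.5 to 1321 in sham cortex. In medulla 1 of them (Des) was higher at 6 and 24 h and 1 (Actg2) was lower at 6 and 120 h. Endothelial sums were 13860 to 22210 in injured medulla, against 6356 to 12570 in sham medulla, where 1, 2 and 1 of 5 probes were higher and 1 (Vwf) lower at 6, 24 and 120 h, and in cortex 1 was lower at 6 and at 24 h. Thick limb and collecting duct markers had 4 of 12 probes higher and 1 lower at each time in medulla, and in cortex 1 higher at 6 h and 1 each way at 24 h. Of 2 neutrophil probes, S100a8 was higher in medulla at 6 h and in cortex at 6 and 24 h, and Mpo was lower in medulla at 24 h. Fat cell markers had 1 and 2 of 4 lower in medulla at 6 and 24 h, but their sums overlapped (1471 to 5617 in injured medulla, against 1126 to 6238 in sham medulla). Glomerular markers had 2, 1 and 1 of 3 lower in medulla and 1 lower in cortex at 24 h. The 3 urothelial probes summed to 84.03 to 213.4 in injured medulla, against 101 to 293.4 in sham medulla. The part of these cells in the matrix changes was not tested.

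Other genes that build, cut or bind matrix were read from lists outside the members, also chosen with earlier results of these data known. Their counts describe the lists and were not tested against the shares of all probes. Those shares were 17.3%, 17.2% and 7.69% higher and 16.6%, 15.5% and 6.88% lower in medulla at 6, 24 and 120 h. In cortex they were 8.87%, 12.6% and 2.45% higher and 10.8%, 13.6% and 3.2% lower. Of 15 collagen-processing probes, 5, 7 and 3 were higher in medulla at 6, 24 and 120 h and 1, 5 and 1 in cortex. Pcolce, which enhances procollagen cleavage, rose by 2.00, 1.75 and 1.66 in medulla and by 1.12, 1.56 and 1.18 in cortex. Fkbp10, a chaperone of collagen folding, rose by 1.67, 1.94 and 1.77 in medulla and by 1.50 in cortex at 24 h. The list's median changes were 0.24, 0.57 and 0.28 in medulla and 0.30, 0.37 and 0.12 in cortex.

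Of 8 probes for collagens outside the set, 1, 0 and 0 by limma were higher and 2, 2 and 0 lower in medulla at 6, 24 and 120 h. Col4a3, a type IV chain of the mature glomerular membrane, fell in medulla at 6 and 24 h (changes -1.92 and -1.48), and Col27a1, a fibrillar collagen of cartilage, fell at the same times (changes -1.92 and -1.67). In cortex Col27a1 alone was called, and fell by 1.71 at 24 h. Of 9 other basement membrane probes, 3 were higher at each time in medulla and 1, 2 and 1 lower, and in cortex 1 was lower at 6 h and 1 at 24 h. Tinag, a tubular basement membrane protein, fell at all 3 times in medulla (changes -3.10, -3.56 and -1.77) and in cortex at 6 h (change -1.37). Tinagl1, its relative, rose by 2.17 in medulla at 6 h.

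Of 28 other protease and inhibitor probes, 7, 8 and 8 were higher and 3, 2 and 1 lower in medulla at 6, 24 and 120 h, with 4, 3 and 2 higher and 3, 3 and 2 lower in cortex. Timp1, an inhibitor of the same family as Timp3, moved against it: it rose by 4.49, 3.77 and 2.91 in medulla and by 2.72 and 4.12 in cortex at 6 and 24 h. Adamts1, a protease of versican, rose by 3.24, 3.26 and 2.57 in medulla and by 2.03, 2.18 and 2.11 in cortex. Of 28 other glycoprotein, proteoglycan and microfibril probes, 12, 12 and 10 were higher and 1, 3 and 2 lower in medulla, and 3, 8 and 5 were higher and 0, 1 and 0 lower in cortex. Spp1 (osteopontin), a phosphoprotein that binds integrins, rose by 1.22, 1.29 and 1.16 in medulla and by 2.23, 3.26 and 3.06 in cortex. Fbln1 (fibulin-1), which binds fibronectin and elastic fibres, rose by 2.08, 2.78 and 2.22 in medulla and by 2.48 in cortex at 24 h. Ccn5, a relative of Ccn2, was at least 4.79-fold higher at 6 h and 5.31-fold higher at 24 h in medulla, and at least 4.15-fold higher in cortex at 24 h. Its probe was above background on injured arrays only, so it passed the filter only through groups where it was high. The bounds of Ccn5 are therefore a description and not a test. Has2 and Srpx2 of the same list were also above background on no sham medulla array, and counts without such probes are not given. At 6 h the medulla bound of Ccn5 was 7.86-fold without 6 h replicate 2 and 3.27-fold without 6 h replicate 1. At 24 h it was 8.88-fold without 24 h replicate 1 and 3.32-fold without 24 h replicate 3. The cortex bound at 24 h was 3.24-fold without 24 h replicate 3. Ltbp2, a microfibril protein, rose by 0.90, 0.82 and 2.47 in medulla and by 0.77 and 2.21 in cortex at 24 and 120 h. Of 13 matrix receptor probes, 5, 4 and 6 were higher and 1, 0 and 0 lower in medulla, and 1, 3 and 1 were higher and 2, 2 and 0 lower in cortex. Cd44, the hyaluronan receptor, rose by 1.15, 1.38 and 1.99 in medulla and by 1.79 and 2.51 in cortex at 24 and 120 h.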

How the data were processed

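Total RNA of kidney cortex and medulla was labelled as biotin cRNA and hybridised to Illumina arrays, per the labels' protocols. Per the file headers, the deposited scanner tables hold a mean intensity per probe (28.5 to 36007.6) and a detection value, a fraction taken here as 1 minus the detection p. The authors' deposited series values are log2 intensities, quantile normalized as their distributions show, and were used as an alternative. The scanner settings are not given in the sources used here. No slide or scan date was given, so no such batch was tested.

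Intensities were background-corrected (normexp, offset 16), quantile normalized and log2-transformed with neqc in limma 3.58.1 under R 4.3.3. Probes with a detection p under 0.05 on 3 or more of 24 arrays were kept, 14390 of 22523. A model with 8 group means gave 14 contrasts, with 16 residual and 3.34 prior degrees of freedom, and Benjamini-Hochberg adjustment over the kept probes. With 3 arrays against 3, an exact permutation test cannot go below p = 0.1, and the number of arrays limits the precision. A group with no array above background was given only a bound, the measured mean of the brighter group against the lowest signal above background on each dim array. GEO's platform annotation gave 1 symbol for 13793 probes and none for 8730. Of the gene IDs, 41 were not in the RefSeq table, and no symbol was changed by it. Scripts were tested on simulated data.

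The members and all gene lists were chosen with earlier results of these data known. The members of each role with the largest called changes, and Col1a1, Col3a1, Col4a1 and Fn1, were given on every array, and values of Col14a1, Lum, Tgfbi and Eln were added after values were seen. Of the other lists, at most 4 called genes each way with the largest changes were named. Replicate numbers come from the sample labels, which do not say that a number marks an animal. Deviations of same-numbered arrays correlated between -0.473 and 0.403 over 14 pairs of groups, and 1 pair of groups had all 3 over 0.1 (medulla and cortex at 24 h). Whether the numbers pair arrays in those 2 groups, or in any others, is thus not known. The blocked fits are given beside the regional difference at 24 h and among the 11 alternatives. These were the offset, normalization, the authors' values, the filters, 1 probe per gene, replicate blocks, the groups fitted and leaving out each array.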

Additional observations from a re-analysis of the deposited data

Results flagged for a closer look

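The arrays of Col14a1 at 24 h lay on opposite sides of sham in the 2 regions: every 24 h medulla array was below every sham medulla array and every 24 h cortex array was above every sham cortex array. The medulla change minus the cortex change was -1.87 (SE 0.402, limma adjusted p = 0.0598), so the difference did not pass over all probes. Lum at 120 h showed the same arrangement of arrays, with a difference of -0.833 (SE 0.278, limma adjusted p = 0.748), which did not pass either. No group here held more than 3 arrays, so single arrays far from their group were not searched for.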

How the results depend on the processing

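Of the 93 called member changes, 0 reversed. They kept direction and call in 415 of 558 repeats without 1 array and in 836 of 923 others, and kept direction only in 143 and 87. Of 89 calls against sham, 45 held under every alternative. Without 1 array the count of called members ranged from 12 to 20, 12 to 20 and 17 to 22 in medulla at 6, 24 and 120 h, and from 2 to 7, 9 to 16 and 2 to 8 in cortex. It ranged from 1 to 2 between sham regions, from 0 to 2 for the regional difference at 24 h, from 0 to 2 for cortex at 24 h against 6 h and from 1 to 2 for medulla at 120 h against 24 h. It stayed 0 for the regional differences at 6 and 120 h, cortex at 120 h against 24 h and medulla at 24 h against 6 h. In cortex at 24 h, 11 were called with quantile normalization alone or the authors' series values, against 17. In cortex at 120 h, 5 were called with an offset of 50 or the series values and 3 with no filter on dim probes or with only the groups compared, against 9. Between sham regions 0 were called with only the groups compared. The regional difference at 24 h gave 1 with the strict filter, 2 with 1 probe per gene and 1 with the random replicate block, against 0. Cortex at 24 h against 6 h gave 1 with an offset of 50, quantile normalization alone, the series values, the strict filter, the replicate block and the random replicate block, and 0 with no filter or only the groups compared, against 2. With the replicate number as a fixed block, counts were 17, 20 and 24 in medulla and 3, 16 and 9 in cortex. Fewer arrays or groups leave fewer degrees of freedom, and the changes themselves also moved. The cause of any of these differences was not tested. Where no array of a group was above background (Cthrc1 in sham cortex, Lum in medulla at 6 h, Mmp7 in sham), only a bound on the fold could be given, and Ccn2 lay near the top of the scale.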
